A study of Nicotiana tabacum with 20 samples.

Results

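A set of 74 transcripts was picked out of 24069 measured in tobacco leaf because their levels were high in 3 groups of plants carrying a hairpin against the retrotransposon Tnt1 and low in both kinds of control plant. RNA abundance had been measured in 20 libraries, 4 in each of 5 groups, from leaves of 45-day-old *Nicotiana tabacum* grown in vitro at 24 °C under 14 h of light. The growth medium held an antibiotic for the transgenic plants, and the labels do not say whether WT received it. Wild-type plants (WT) carried no transgene. Empty-vector plants (C) were regenerants carrying the 35S promoter, an intron, the OCS terminator and hygromycin resistance. Both hairpin lines were regenerants in the T1 generation, line 8 (HP8_T1) and line 1 (HP1_T1), and the T2 group (HP1_T2) came from self-pollination of line 1. All 3 hairpin groups carried sense and antisense copies of a fragment of the Tnt1 reverse transcriptase around the intron, again under the 35S promoter, with hygromycin resistance and the reporter gene GUS. The hairpin and GUS are thus both absent from C, and the labels give neither a line nor a generation for C, so that these differences between C and the hairpin plants cannot be told apart.

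Tnt1 is an LTR retrotransposon of tobacco: it is copied from its RNA by its own reverse transcriptase and inserts the copies elsewhere in the genome, and its promoter is known to respond to wounding, pathogens and tissue culture. A transcript that folds into a hairpin is cut in plant cells into small interfering RNAs, which direct the silencing of matching sequences. The 35S promoter, from cauliflower mosaic virus, is active in most plant tissues, so the hairpin is not restricted to 1 leaf cell type by design. Tobacco is an allotetraploid, and many of its genes exist as near-identical copies from its parent species.

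The transcripts, called features here, are UniGene sequences whose identifiers are not paired with gene names in the files. None could be matched to the reference gene table (0 of 24069). For this reason the members are described by level, length and pattern, at most 2 are named by identifier, and neither gene functions nor the labelled tissue could be checked against known genes. Tnt1 itself, the transgene and sequences of the members are not analysed here.

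The members were chosen by measured levels in all 5 groups. The rule worked on total gene reads divided by a library size factor, called scaled reads, and on a group level, which is the mean of the scaled reads over 4 libraries plus 1. Members had a level of at least 20 in each hairpin group and at least 2 times that of WT and of C in each, and the highest hairpin level was under 2 times the lowest. Of 1501 features with a level of at least 20 in all hairpin groups, 284 were at least 2 times WT in each and 139 at least 2 times C in each. Both held for 93, of which 19 were left out because the hairpin groups differed by 2 times or more, leaving 74. A further 164 features failed at C alone and 37 failed at WT alone. The member nearest to the fold bound stood at 2.01 times the higher control and the nearest feature left out at 1.98 times. For the spread between hairpin groups these values were 1.98 and 2.01, and for the lowest hairpin level 21.8 and 19.7. Because the levels of all 5 groups chose the members, differences between hairpin and control plants and among hairpin groups are given as values without a test.

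Libraries held 1958952 to 3638494 gene reads. A single feature outside the set took 73.8% to 80.7% of them in the hairpin libraries, 82.3% to 86.1% in WT and 88.1% to 90.5% in C, so that 199341 to 647426 reads per library carried all other features. Its share moved with the groups; with the reads outside it as the scale, 60 of the 74 members still met the rule, and with TMM factors 48 did. Member reads numbered 966 to 1396 per library in C, 987 to 1471 in WT and 6444 to 13378 in the hairpin groups. Many control values rest on few reads: 38 to 51 of the 74 members had under 10 reads in a given WT library and 36 to 50 in a given C library, against 0 in every hairpin library. Nothing in the labels tells whether the 4 libraries of each group are separate plants, so spreads and p-values cover differences between these libraries, which may be technical. In whole-leaf RNA, more cells of a type and more RNA per cell cannot be told apart.

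Together the members accounted for 7300 to 7860 scaled reads in the HP8_T1 libraries, 7696 to 7920 in those of HP1_T1 and 6362 to 6598 in those of HP1_T2, while WT libraries held 1589 to 1641 and C libraries 1887 to 1963. As a share of reads outside the most abundant feature, they made up 1.70% ± 0.0595, 2.16% ± 0.0356 and 1.54% ± 0.0320 in the 3 hairpin groups in that order, and 0.257% ± 0.00783 in WT and 0.484% ± 0.0104 in C (SD, n = 4 each). The hairpin libraries were thus above all control libraries on both scales, while C exceeded WT more on the second scale than on the first. The median log2 level of the members in the hairpin mean was 2.32 above WT and 1.75 above C. Over the 1501 features with hairpin levels of at least 20, these medians were 0.42 and 0.30. That floor was set in the hairpin groups alone, not in WT or C, which can raise the medians of these features. Setting groups without reads at 3 reads over their 4 libraries left both medians of the members at 2.32 and 1.75, but it could not have moved them. It concerned 3 members without a WT read and 1 without a C read, all far above the median. No library of a hairpin group overlapped with any control library in 72 of the 74 members. The same was seen in 12.2% of the 1501 features with hairpin levels of at least 20, and since the rule used these values nothing is read from the difference.

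**Figure D1:**
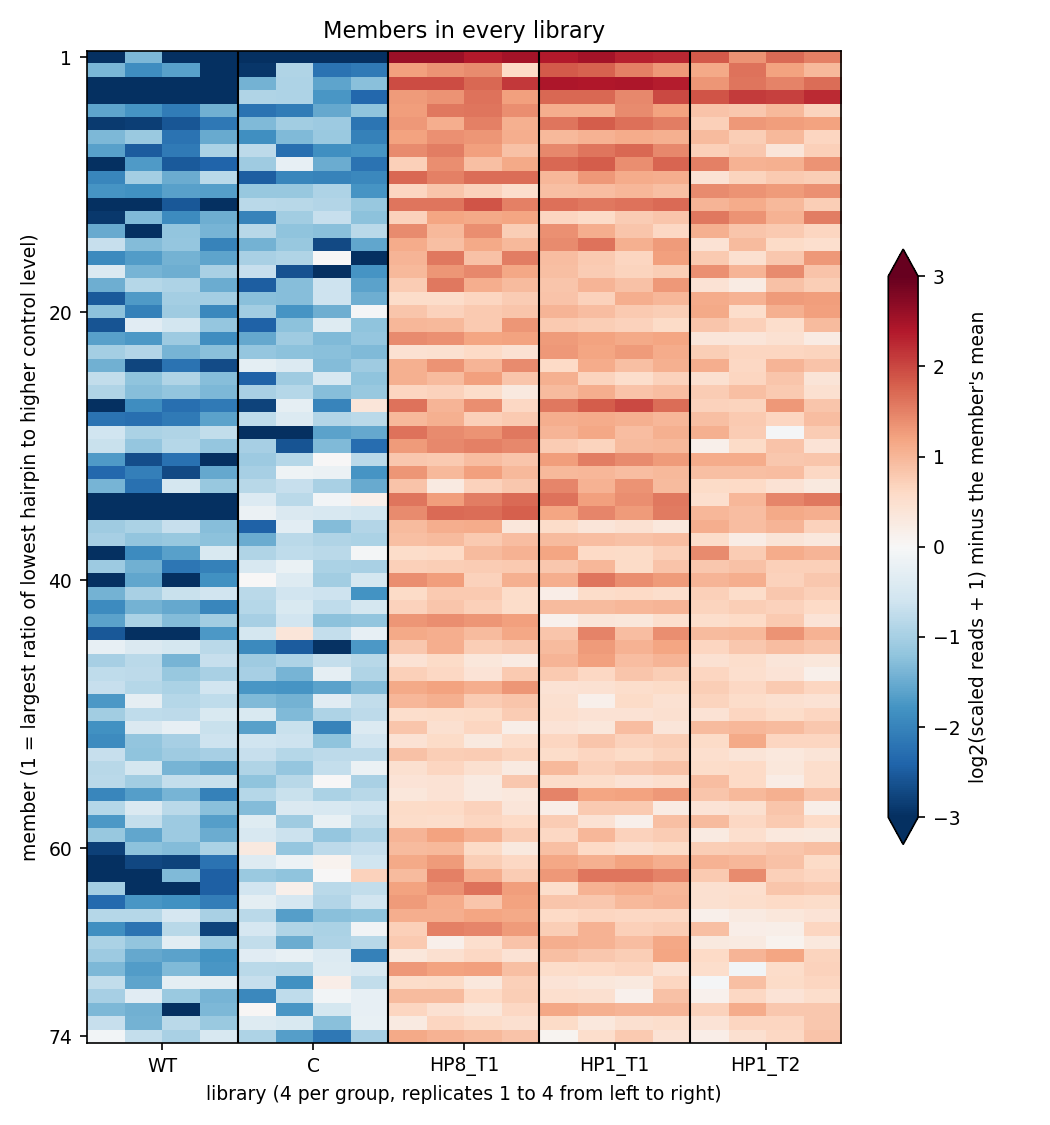
Scaled reads of the 74 members (rows, ordered by the ratio of the lowest hairpin level to the higher control level) in the 20 libraries (columns, 4 per group). Colour gives log2(scaled reads + 1) minus the member's mean over libraries; the 12 hairpin columns are red in nearly all rows and the 8 control columns blue, with WT darker than C in many rows.

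High in the hairpin groups did not mean absent elsewhere. Reads were present in WT for 71 members and in C for 73, and 28 members had a level of at least 20 in WT or C. The ratio of the lowest hairpin level to the higher control level was 2 to 3 in 48 members, 3 to 4 in 17 and at least 4 in 9, with a median of 2.61. Levels in the hairpin mean ran from 24.5 to 657, with a median of 51.9. They were under 50 in 36 members and over 200 in 11, and the 10 most abundant members held 48.9% of the members' scaled reads in the hairpin libraries. Per kilobase of feature length, the hairpin level had a median of 54.3 and a range of 11.6 to 530, against medians of 11.8 in WT and 15.2 in C.

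The largest ratio belonged to Nta#S36362116, a feature of 846 bases whose reads all mapped to it alone. HP8_T1 libraries held 68, 92, 83 and 81 reads of it, HP1_T1 libraries 66, 103, 96 and 80, and HP1_T2 libraries 39, 33, 39 and 33. In WT 1 library held 3 reads and the other 3 none, and in C there were 0 reads in all 4. The scaled reads of HP8_T1 were 63.3 ± 3.85, those of HP1_T1 57.3 ± 4.13 and those of HP1_T2 33.7 ± 5.23 (SD, n = 4 each). The 12 hairpin libraries lay between 27.7 and 66.3 and the highest control library at 3.45, and the T2 libraries were all below those of both T1 groups. With C set at 3 reads over its 4 libraries, the pooled hairpin level was at least 45.5-fold higher than C, and group by group the bound was 54.6-fold for HP8_T1, 49.6-fold for HP1_T1 and 28.9-fold for HP1_T2. Against the 3 reads of WT the pooled ratio was 56.1, with an exact 95% interval of 19.1 to 273 that covers counting error only.

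The most abundant member was Nta#S33578135, of 1500 bases, with 94.5% of its reads unique to it. HP8_T1 libraries had 504, 514, 556 and 504 scaled reads, HP1_T1 libraries 904, 834, 899 and 804, and HP1_T2 libraries 613, 578, 579 and 587, against 183, 201, 140 and 154 in WT and 164, 157, 153 and 146 in C. HP1_T1 stood highest, HP8_T1 lowest among the hairpin groups, and no library overlapped between any pair of them, whereas WT and C overlapped. On the log2 scale of levels, the hairpin mean was 1.95 above WT and 2.08 above C. Per kilobase it reached 438, against 530 for a member of 899 bases and 450 for one of 718 bases, which were the highest by that measure.

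Several members had large ratios with few reads in the controls. A feature of 843 bases, next by ratio at 8.22, stood at 83.4 ± 19.5 scaled reads (HP8_T1), 113 ± 19.2 (HP1_T1) and 87.6 ± 18.4 (HP1_T2), compared with 9.27 ± 4.09 in WT and 9.26 ± 6.50 in C (SD, n = 4 each). Its libraries overlapped among the hairpin groups and between the controls, and 75.8% of its reads were unique. The longest member, of 3216 bases, had 77.5, 66.3, 88.7 and 65.3 scaled reads in HP8_T1. HP1_T1 libraries held 91.0 to 111 and HP1_T2 libraries 51 to 77.1. Its WT libraries held 3.33, 3.45, 4.35 and 6.14 and its C libraries 11.7, 14.4, 13.9 and 5.95. HP1_T1 was thus the highest group without overlap, and C lay above WT in 3 of its 4 libraries. A member of 923 bases had equal control means, 6.03 ± 1.30 in WT and 6.03 ± 2.36 in C, and fell off from 62.3 ± 7.47 in HP8_T1 through 51.8 ± 5.66 in HP1_T1 to 39.9 ± 3.57 in HP1_T2 (SD, n = 4 each). A member of 929 bases with no WT read showed the opposite order, with 32.2 ± 4.29 for HP8_T1, then 41.5 ± 6.21 for HP1_T1 and 52.7 ± 5.47 for HP1_T2, beside 3.97 ± 2.19 in C (SD, n = 4 each). The order of the hairpin groups therefore differed from member to member.

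Some abundant members also differed among the hairpin groups, but not always without overlap of libraries. A feature of 1236 bases had 556, 580, 538 and 631 scaled reads in HP8_T1, 343, 347, 361 and 374 in HP1_T1, 422, 386, 433 and 393 in HP1_T2, and 155, 138, 131 and 168 in WT. Its C libraries stood at 82.7 ± 12.9 (SD, n = 4). None of its 5 groups overlapped with another, and line 8 was highest. A feature of 2377 bases had 563, 548, 481 and 491 scaled reads in HP8_T1 and 512, 490, 463 and 481 in HP1_T1, but 272, 272, 289 and 250 in HP1_T2, with 71.8 ± 17.9 in WT and 87.6 ± 12.4 in C (SD, n = 4 each). Here both T1 groups overlapped and the T2 libraries lay lower. In the member of 899 bases the same order was weaker, from 534 ± 33.9 for HP8_T1 through 479 ± 17.4 for HP1_T1 to 414 ± 22.8 for HP1_T2, against 159 ± 25 in WT and 183 ± 8.79 in C (SD, n = 4 each). Its HP8_T1 and HP1_T1 libraries overlapped, and its HP1_T2 libraries lay below both. The member of 718 bases was highest in HP1_T1 at 369 ± 25.8, with 279 ± 33 in HP8_T1 and 318 ± 37.9 in HP1_T2, and its controls, 84.0 ± 12.2 in WT and 91.3 ± 11.8 in C, overlapped (SD, n = 4 each). Its HP1_T2 libraries overlapped with those of HP8_T1 and with those of HP1_T1.

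**Figure D2:**
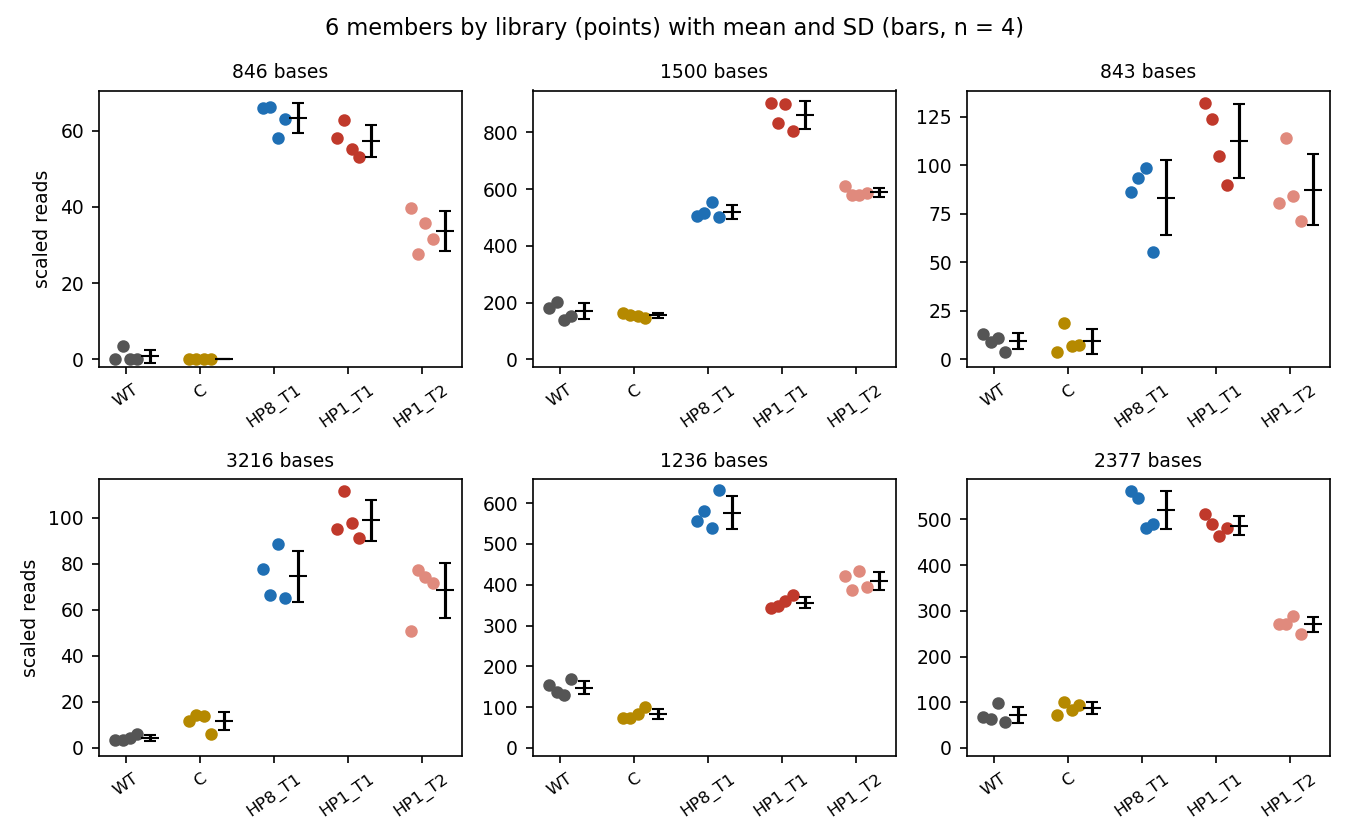
Scaled reads (linear axes) of 6 members, titled by length, in the 4 libraries of each group (points) with the mean and SD (bars, n = 4). The 846-base member is at or near 0 in WT and C, the 1500-base member is highest in HP1_T1, and the 1236-base member is highest in HP8_T1.

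The rule allowed the hairpin groups to differ by up to 2 times and set no order among them. Their highest level was under 1.2 times the lowest in 13 members, under 1.5 times in 46 and at least 1.8 times in 9. The most even member, of 1306 bases, kept near one value, with HP8_T1 at 56.2 ± 1.04 scaled reads, HP1_T1 at 58.6 ± 6.99 and HP1_T2 at 57.4 ± 3.52 (SD, n = 4 each). Line 8 was the highest hairpin group in 32 members, line 1 of the T1 generation in 27 and its T2 progeny in 15. Over the 1501 features with hairpin levels of at least 20 these shares were 39.1%, 33.7% and 27.2%, against 43.2%, 36.5% and 20.3% of the members. Which group was highest depended on the scaling: line 1 of the T1 generation led in 48 members with library totals (line 8 in 21) and in 52 with totals outside the most abundant feature (line 8 in 14), and with TMM line 8 led in 29, line 1 in 25 and the T2 progeny in 20. Over the 1501 features, line 1 of the T1 generation led in 804 and 843 with the first 2 of these scalings. With TMM, line 8 led in 525 of the 1501, line 1 of the T1 generation in 442 and the T2 progeny in 534. The T2 progeny was the lowest in 40 of 74 members (54.1%), against 41.5% of the 164 features that failed at C alone and met the same bound on the hairpin spread. The share was 34.9% of the 1501 features with hairpin levels of at least 20, which were not held to that bound. The count of members lowest in HP1_T2 depended on the scaling: it was 33 with TMM and 54 with library totals. Over the 1501 features these counts were 422 and 758. The median log2 level of HP1_T2 over HP1_T1 was −0.23 in the members and −0.03 over the 1501 features, and that of HP8_T1 over HP1_T1 was 0.02 and 0.03. Of the 19 features left out for a hairpin spread of 2 times or more, HP1_T2 was lowest in 14 and HP8_T1 highest in 13.

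**Figure D3:**
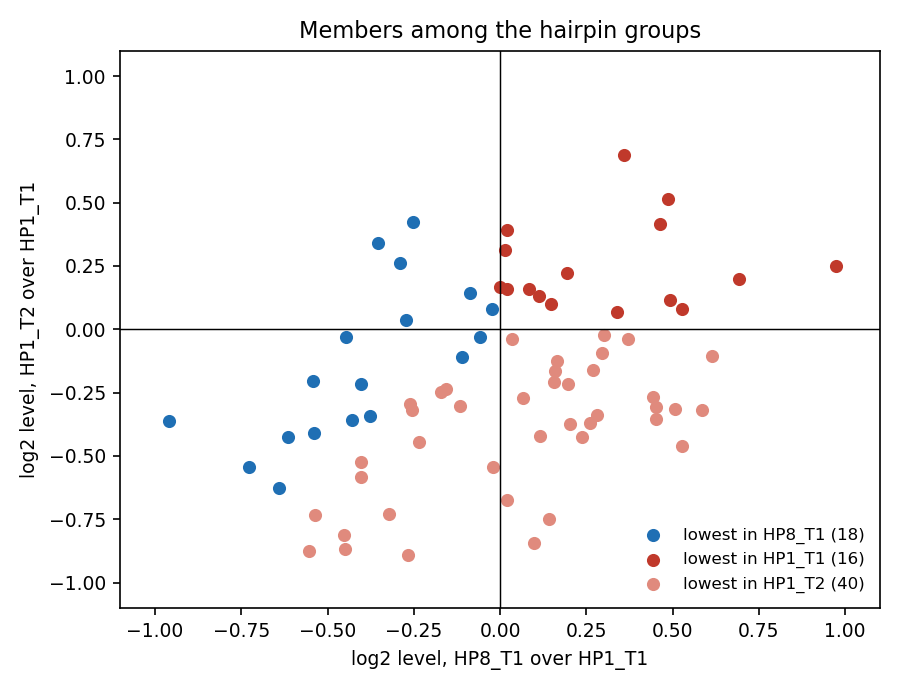
Log2 level of HP8_T1 over HP1_T1 (horizontal) and of HP1_T2 over HP1_T1 (vertical) for the 74 members, coloured by the hairpin group with the lowest level. The members lowest in HP1_T2, 40 of 74, lie in the lower part of the plot; the rule bounded all values to under 1 in size.

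The rule set no order between C and WT, but it capped both at 0.5 times the lowest hairpin level. The comparison of C with WT was thus only partly free of the choice. It asked whether features set apart in the hairpin plants also differed between the empty-vector and wild-type plants. C differed from WT in regeneration, in the vector sequences with hygromycin resistance and possibly in the antibiotic. These differences cannot be told apart. In edgeR's quasi-likelihood test with Benjamini-Hochberg adjustment over 7126 features, 25 of the 74 members rose in C, while 6 fell. Over all features tested, 19.6% rose and 21.0% fell, and the median log2 change was 0.33 in the members and 0.0021 over all features. Of the 74 members, 41 did not pass the filter on low counts in the control libraries alone and were tested only because the hairpin libraries were in the fit, so nothing is read from these counts and medians against the other features. In a fit of the 8 control libraries 33 members were tested, of which 14 rose and 2 fell, where 26.6% of 2782 features rose and 28.3% fell. Scaling to the reads outside the most abundant feature, which moved the median log2 change of all features to 0.67, gave 49 members that rose and 1 that fell, while 41.5% of all features rose and 9.14% fell. Neither C nor WT could exceed 0.5 times the lowest hairpin level in a member. Rises that took C past that cap, and falls from a WT level past it, were thus removed by the choice of the set. Adjusted p-values of single members come from levels that the rule also used and are given as description.

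The members that rose in C had a median level of 4.25 in WT, 14.3 in C and 49.5 in the hairpin mean, and those that fell had 32.8, 13.3 and 116 in that order. The 43 that did not pass had 13.1 in WT and 13.2 in C. The calls rest on these same WT and C values, so nothing is read from the order of WT and C within the classes. Both members with the lowest adjusted p in each direction are described next, a choice made after their values were seen. A member of 893 bases had 28.3, 27.6, 30.5 and 44.2 scaled reads in WT and 80.1, 102, 73.7 and 77.4 in C. Its C libraries lay above all WT libraries and below all hairpin libraries, which ran from 214 to 295. It rose in C, with a log2 change of 1.32 (SE 0.17, edgeR adjusted p = 2.11e-10). A member of 880 bases followed the same course, with WT at 42.1 ± 7.85, C at 87.9 ± 11.2, HP8_T1 at 226 ± 17.8, HP1_T1 at 271 ± 7.12 and HP1_T2 at 220 ± 9.29 (SD, n = 4 each), and its log2 change in C was 1.03 (SE 0.15, edgeR adjusted p = 2.49e-08). Among the members without a WT read, one of 848 bases had 29 reads over the C libraries and 11.1 ± 3.33 scaled reads there, where HP8_T1 had 40.5 ± 5.40, HP1_T1 38.7 ± 4.75 and HP1_T2 31.9 ± 10.3 (SD, n = 4 each).

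A few members moved the other way in the empty-vector plants. One of 572 bases had 51.6, 44.9, 42.4 and 34.4 scaled reads in WT and 15.6, 10.1, 6.95 and 17.9 in C, while its hairpin libraries ran from 95.8 to 148. It was therefore lowest in C and highest in the hairpin groups without overlap between the 3 kinds of plant, and it fell in C with a log2 change of −1.81 (SE 0.25, edgeR adjusted p = 3.48e-09). The member of 1236 bases, also described above among the abundant ones, fell in C with a log2 change of −0.85 (SE 0.12, edgeR adjusted p = 7.73e-09). Nta#S33578135 did not pass in this comparison, with a log2 change of −0.15 (SE 0.11, edgeR adjusted p = 0.266), and Nta#S36362116, with 3 reads in WT and 0 in C, is given no fold change between the controls.

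**Figure D4:**
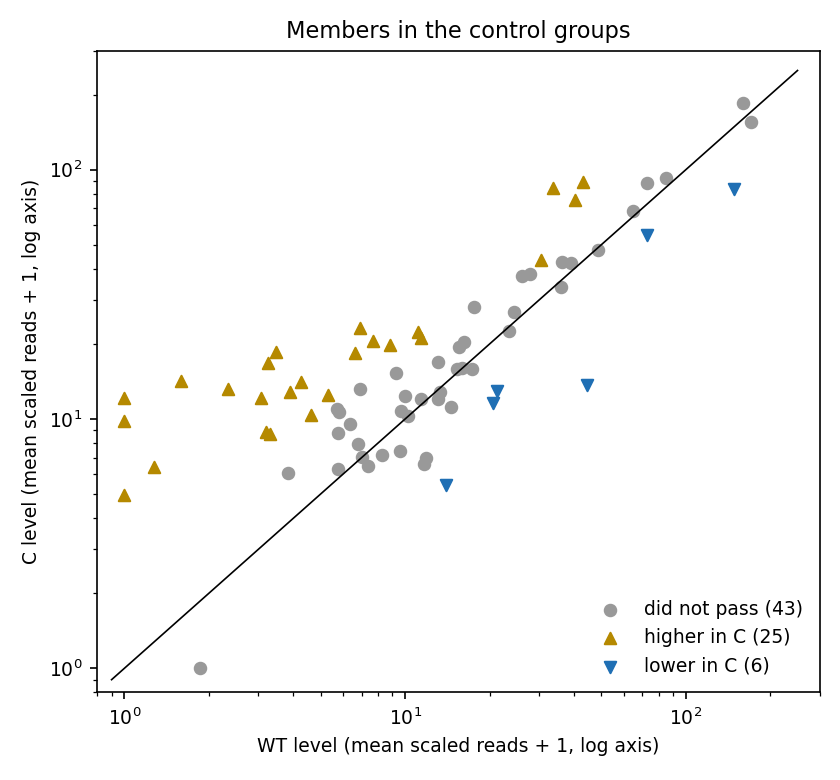
Level in WT (horizontal) and in C (vertical), as mean scaled reads plus 1 on log axes, for the 74 members; the line marks equal levels. Of the members, 25 rose in C (triangles up), 6 fell (triangles down) and 43 did not pass (circles) by edgeR's quasi-likelihood test, and most that rose had few reads in WT.

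To read the pattern in libraries that had no part in the choice, the rule was applied to 3 replicates of each group and the 5 libraries with the remaining replicate number were then examined. With replicates 1, 2, 3 and 4 set aside in turn, 76, 72, 80 and 71 features were chosen. Of these, 67, 63, 67 and 64 were among the 74 members. In the library set aside, each hairpin library was at least 2 times both control libraries in 73.7%, 72.2%, 61.3% and 71.8% of them. The hairpin libraries lay above both controls in 100% of the features with replicate 1 set aside and in 98.6%, 95% and 98.6% with the others. Over features with hairpin levels of at least 20, 6% to 7.05% met the 2-fold bound and 32.3% to 33.0% lay above both controls. Those features were not chosen for this contrast, so nothing is read from the difference. The chosen features that lost the bound in the libraries set aside were mostly still higher in the hairpin libraries of that number. If the libraries of a group were repeat libraries of 1 RNA sample, the libraries set aside share that sample with the others.

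Both members whose hairpin and control libraries overlapped had small counts. One of 629 bases had 29.8 scaled reads in 1 C library and 28.6 in 1 HP1_T2 library, with 0 in 2 of the WT libraries. The other, of 1013 bases, reached 26.4 in 1 C library against 22.4 in 1 HP1_T2 library. The remaining 72 were separated. In 24 members the lowest hairpin library was at least 2 times the highest control library, with 1 added to both. The rule used these values, so nothing is read from these counts.

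Length and the spread between libraries were not used by the rule and were not tested. The members' length had a median of 904.5 bases and a range of 340 to 3216, against a median of 915 bases over the 1501 features with hairpin levels of at least 20. Of the members 9.46% were longer than 2000 bases, against 7.73% of those features. Between the 4 libraries of a hairpin group, the variance of a member's reads was 1.19 times that expected from counting alone (median over members), against 1.26 times over the 1501 features. The median coefficient of variation of the members in hairpin groups was 11.8%, against 13.7%. Both sets thus had a typical spread between libraries only slightly above counting noise.

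Reads shared between features made up a larger part of some members than of most other features. All reads mapped uniquely in 42 members (56.8%), against 62.8% of the 1501 features with hairpin levels of at least 20. The unique share was under 90% in 18 members (24.3%) against 15.5%, and in 9.15% of the 164 features that failed at C alone. It was under 50% in 5 members (6.76%) against 2.33%. These shares were not tested, and members that share reads with each other do not count as independent. The lowest unique share, 14.0%, was that of a feature of 653 bases, whose HP8_T1 libraries stood at 46.3 ± 13.9 scaled reads, those of HP1_T1 at 68.4 ± 8.18 and those of HP1_T2 at 36.8 ± 8.60, with 2.89 ± 2.01 in WT and 11.8 ± 10.9 in C (SD, n = 4 each). Features of 1014 and 838 bases had 17.6% and 19% unique reads. The abundant member of 2406 bases had 46.8% unique reads and stood at 325 ± 28 scaled reads (HP8_T1), 283 ± 11.2 (HP1_T1) and 244 ± 27.4 (HP1_T2), against 47.6 ± 14.3 in WT and 46.4 ± 13.9 in C (SD, n = 4 each). The files do not say with which features these reads were shared, so the levels of the 18 members are uncertain where near-identical copies exist. On unique reads alone 69 of the 74 features met the rule, among them 55 of the 56 with at least 90% unique reads and 1 of the 5 with under 50%.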

How the data were processed

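Leaf RNA of 20 libraries was analysed from 2 tables of the whole series. The values are counts of total and of unique gene reads for each UniGene feature, deposited by the authors with feature lengths, per the file headers. Libraries were made from total RNA with a SOLiD kit, per the labels' protocols; the aligner and the reference build were not given in the sources used here. WT columns were identical in both tables (8 of 8 compared), so 1 matrix of total reads was used. Size factors were medians, over 1134 features with at least 10 reads in every library, of the ratio to a feature's geometric mean. C was compared with WT in edgeR 4.0.16 (R 4.3.3): all 20 libraries, group as the term, TMM, filterByExpr with a minimum count of 10, quasi-likelihood F test, Benjamini-Hochberg adjusted p of 0.05; the common biological coefficient of variation was 8.91%. The fit was tested on simulated data. Descriptions used Python 3.11.15 with scipy 1.17.1. DESeq2 1.42.0, other scalings and filters, unique reads and left-out libraries were alternatives. The rule named the member with the largest ratio and the most abundant other member by identifier; others are given by length, taken by ratio, level and level per kilobase unless stated. Members and choices were made with earlier results of these data known. Intervals and bounds cover counting error only.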

Additional observations from a re-analysis of the deposited data

Results flagged for a closer look

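In a check for a library far from the other 3 of its group, made in 75 groups of 4 values (13 members, the share of the members and that of the most abundant feature), 1 was set apart, and chance alone sets apart about 1 in 20. It was Nta#S36362116 in WT, where 1 library had 3 reads (3.45 scaled reads) and the other 3 had 0, so that the gap made up the whole range (ratio 1). Without that library, the log2 level of the hairpin mean over WT went from 4.81 to 5.71. WT then had 0 reads, so 5.71 rests on the 1 added to each level. With all libraries and 5 added in place of 1, the log2 level was 3.27. Counts of 0 and 3 limit what can be read from these values.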

How the results depend on the processing

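The set of members depended on scale and thresholds. Against 74, the rule gave 51 features with TMM (48 shared with the 74), 80 with totals outside the most abundant feature (60 shared), 66 with totals outside the 100 most abundant (59 shared) and 628 with library totals (64 shared). It gave 390 with no filter on low values, 32 with a hairpin level of at least 50 and 26 with a fold bound of 3, the cause of these 3 being the thresholds themselves. Leaving out 1 library gave 70 to 77 members, with 67 to 74 shared. The median log2 level of features with hairpin levels of at least 20, hairpin mean over WT, was 0.42 with median ratios, 0.19 with TMM, 1.03 when the most abundant feature was left out of the totals, 1.54 with library totals, and for the members 2.32, 2.09, 2.89 and 3.36; the cause of the shift was not tested.

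For C against WT, 25 members rose and 6 fell; the counts were 14 and 2 in the fit of 8 libraries, which tested 33 members (26.6% and 28.3% of all its features), and 49 and 1 with totals outside the most abundant feature (41.5% and 9.14% of all features). Leaving out 1 library gave 23 to 26 (17.0% to 17.7% of all features) and 4 to 7 (18.2% to 19.7%). DESeq2's test gave 25 and 5 (14.2% and 13.7% of all its features). The fit with a replicate block gave 25 and 6, the counts without it (19.8% and 21.2% of all features). Same-numbered libraries of WT and C correlated at 0.036 to 0.153 in their deviations from the group means. Not every pair was over 0.1, so the numbers were not taken as pairs. As a hint from the data, the 40 same-numbered pairs over all groups were at 0.0098 to 0.269 and the 120 others at −0.258 to 0.193, 6 of the 8 WT and C libraries correlated best with their own number, and the share of the most abundant feature had 1 order over the numbers in all 5 groups. For each library against each other group, the best match had the same number in 49 of 80 cases. What libraries of the same number share was not tested, and the standard errors and p-values given are from the fit without the block. In the libraries set aside, 69.6% of chosen features met the 2-fold bound over all 4 numbers and 60.9% with totals outside the most abundant feature; the cause was not tested.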
